A study of Mus musculus with 10 samples.

Results

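Mitosis and spindle genes were followed in the dentate gyrus of the mouse, the part of the hippocampus in which granule neurons are still born after birth. The set is a named list of 40 genes of mitotic entry, the spindle, the kinetochore and cell separation, and 39 of them had a probe set annotated to that gene alone, out of 19752 genes measured in this way; Ccnb1, the gene of cyclin B1, was not analysed here. Whole-transcript Affymetrix arrays had been hybridised with total RNA of dentate gyri cut out with a needle tip. The labels give the mice as female, of the strain written C56BL/6J, with no treatment, at ages of 4, 6, 8, 10 and 12 weeks. Each age had 2 arrays, and nothing says whether these were separate mice or pools, so the p-values rest on the scatter of these 10 arrays, part of which may be technical.

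A cell that divides first switches on cyclin A and cyclin B, which activate the kinase Cdk1. The duplicated chromosomes are then condensed and attached through their kinetochores to the microtubules of the spindle. The spindle checkpoint holds them back until every one is attached. They are finally released through the anaphase-promoting complex, which also marks the cyclins for destruction. In the dentate gyrus of the young and adult mouse the dividing cells include the intermediate progenitors of granule neurons, the radial glia-like stem cells from which they arise, and precursors of oligodendrocytes. They are a small part of the tissue. In tissue samples of this kind, fewer dividing cells and less of a transcript per cell cannot be told apart.

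Many of these genes are switched on together late in the cell cycle through short promoter motifs. The best known is the cell cycle genes homology region, or CHR, with the core TTTGAA, which is bound by the MuvB complexes of the cell cycle; CCAAT boxes, which bind the factor NF-Y, often lie before it. The bases from −130 up to the annotated start, or up to the outer edge of the gene where another annotated transcript begins further out, are shown for 8 of the genes, read 5′ to 3′ on the strand of the gene from RefSeq annotation of build GRCm38.p6. They were chosen to set genes that passed a test beside genes that did not. No difference between these genes was tested, and Kif11, which did not pass, had a larger fitted change than Ube2c, which did. The capitals mark matches to TTTGAA (or TTCAAA on the other strand) and to CCAAT (or ATTGG). Mki67 (chr7:135716451-135716509, minus strand), Top2a (chr11:99024200-99024319, minus strand) and Ube2c (chr2:164769799-164769928, plus strand) passed the test of a change with age described below.
Mki67: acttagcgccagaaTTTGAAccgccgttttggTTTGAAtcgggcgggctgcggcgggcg
Top2a: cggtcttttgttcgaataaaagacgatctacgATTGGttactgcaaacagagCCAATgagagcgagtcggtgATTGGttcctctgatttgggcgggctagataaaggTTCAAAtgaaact
Ube2c: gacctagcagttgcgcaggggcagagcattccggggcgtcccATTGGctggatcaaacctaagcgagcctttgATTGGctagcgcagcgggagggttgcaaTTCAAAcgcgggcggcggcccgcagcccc
Cdk1 (chr10:69352913-69353042, minus strand), Cdc20 (chr4:118437344-118437473, minus strand), Kif11 (chr19:37376252-37376381, plus strand) and Kif15 (chr9:122950951-122951080, plus strand) carry the same hexamer but did not pass, and Birc5 (chr11:117849107-117849236, plus strand) has neither motif in this stretch.
Cdk1: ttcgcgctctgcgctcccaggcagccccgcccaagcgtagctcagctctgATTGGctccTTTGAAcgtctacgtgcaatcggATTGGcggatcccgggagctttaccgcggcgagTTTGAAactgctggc
Cdc20: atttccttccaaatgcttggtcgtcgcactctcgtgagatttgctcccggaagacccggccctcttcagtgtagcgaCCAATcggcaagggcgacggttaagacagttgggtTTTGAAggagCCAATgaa
Kif11: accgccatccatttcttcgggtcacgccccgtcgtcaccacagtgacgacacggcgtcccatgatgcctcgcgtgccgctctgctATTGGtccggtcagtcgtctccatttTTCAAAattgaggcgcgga
Kif15: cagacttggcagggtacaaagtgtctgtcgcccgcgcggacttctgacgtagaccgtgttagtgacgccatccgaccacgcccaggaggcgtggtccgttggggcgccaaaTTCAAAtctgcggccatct
Birc5: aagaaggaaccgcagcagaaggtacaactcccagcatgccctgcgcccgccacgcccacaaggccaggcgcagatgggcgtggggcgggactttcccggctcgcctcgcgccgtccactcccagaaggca

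Before the results, the arrays themselves. Pearson correlations across genes between arrays lay between 0.994 and 0.998. The array of 8 weeks replicate 1 had the narrowest spread of levels (SD 2.12, against 2.16 to 2.22 on the others), and the array of 6 weeks replicate 1 had a median of 8.09 log2 units over 5 choroid plexus markers, against 6.92 to 7.31 on the others. Results named below are also given without these 2 arrays where the call differs. Although the labels say female, Xist lay between 5.41 and 6.02 and the Y-linked gene Uty between 9.10 and 9.34. The granule cell markers Prox1 and Calb1 averaged 12.29 and 12.63 log2 units, far above the receptor level defined below. Levels are log2 values as deposited, and changes are taken within a gene; levels of different genes come from different probes and are not on a common scale.

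Many of the mitosis genes were dim on these arrays. A scale for dim signal came from 1207 genes of smell receptors (olfactory, vomeronasal and trace amine), thought to be mostly silent in brain. On each array the level under which 95% of them lay was found; it averaged 7.01 (6.87 to 7.18), and a gene whose mean lies under it is called dim. Of the 39 mitosis genes 20 were dim by this measure and 19 were not, against 27.1% of all genes. The middle gene, Ckap2l, sat at the border with a mean of 7.01; the means ran from 5.03 for Hmmr to 8.99 for Mad2l1. At 4 weeks 16 genes were under the receptor level on both arrays, at 6 weeks 18, at 8 weeks 19, at 10 weeks 22 and at 12 weeks 25. Mki67, Top2a, Tpx2, Kif11, Melk, Cenpf, Ckap2l and Ect2 are the 8 that stood under it on both arrays of 12 weeks and above it on both arrays of 4 weeks. That level is each array's own. It was 6.90 and 6.97 on the arrays of 4 weeks and 6.98 and 7.04 on those of 12 weeks. These counts therefore also follow its shifts, and the share of all genes under it at each age was not counted.

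Of the 39 genes 6 fell with age and 0 rose, which is 15.4% of them, where 0.673% of all genes were called as falling (0.82% in either direction). Of the 6, Hmmr was dim. When both 4-week arrays were left out, 0 of the 39 were called, and 7 of all genes were. The test is the slope over age in limma, scaled to the 8 weeks between the first and last age and printed as a log2 value with its SE, at a Benjamini-Hochberg adjusted p under 0.05 over all 19752 genes. The fitted change was negative for 37 of the 39, against 48.8% of all genes, and its median was −0.19, against 0.00 for all genes. The 2 positive ones were Kif4 (0.02 ± 0.10) and Ndc80 (0.17 ± 0.12), neither past the test; Kif4 was negative in 5 of 22 alternative fits, quantile normalization among them. An unadjusted p under 0.05 was reached by 22 genes, or 56.4%, against 11.7% of all genes. Since the genes were proposed with earlier results of these arrays known, these shares describe them and are not independent evidence.

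**Figure D1:**
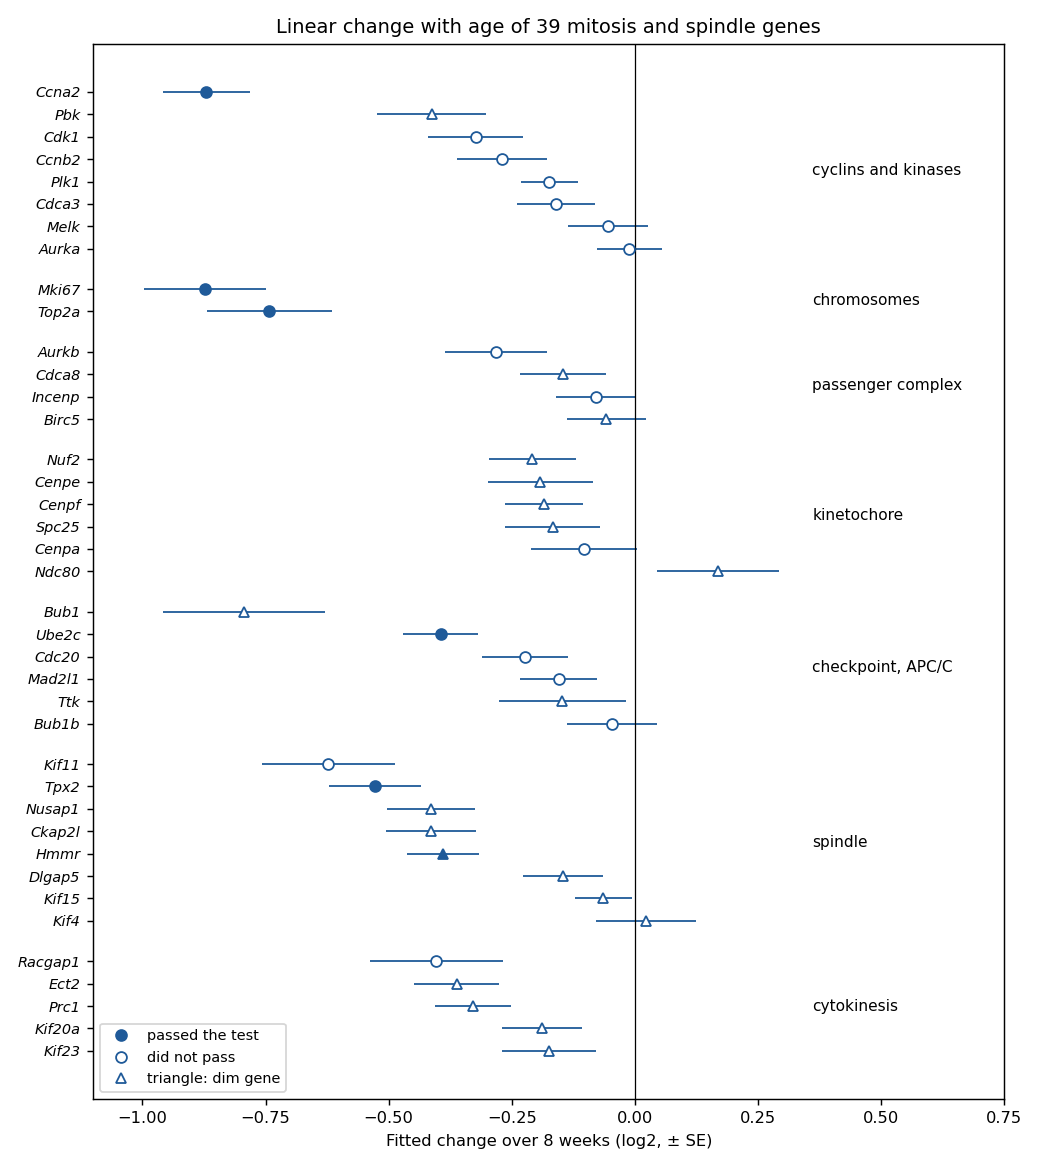
Fitted linear change over the 8 weeks (log2, horizontal axis, with SE bars) for each of 39 genes, grouped by role; filled symbols passed the test over all genes and triangles are dim genes. The 6 filled symbols lie between −0.87 and −0.39, and Ndc80 and Kif4 are the points right of 0.

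Mki67 and Top2a, which act on the chromosomes themselves, both fell. Mki67 (chromosome 7, 135689784 to 135716450) encodes Ki-67, the proliferation marker that coats mitotic chromosomes. Its levels were 7.91 and 7.91 at 4 weeks, 7.28 and 7.40 at 6 weeks, 7.29 and 7.13 at 8 weeks, 7.11 and 6.97 at 10 weeks, and 6.94 and 7.0 at 12 weeks. The 2 arrays of 4 weeks stood above all others, and each 12-week array lay just under its own receptor level. The fitted change was −0.87 ± 0.12 (adjusted p = 0.0069), as measured and with no fold given, since the 12-week level was not above the receptor level. Without the array of 4 weeks replicate 1 it was −0.77 (adjusted p = 0.055).

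Top2a (chromosome 11, 98992947 to 99024199) encodes topoisomerase II alpha, which untangles the sister chromatids. It had levels of 7.72 and 7.52 at 4 weeks, 7.13 and 7.29 at 6 weeks, 7.16 and 7.20 at 8 weeks, 6.73 and 7.02 at 10 weeks, and 6.70 and 7.02 at 12 weeks. Again both 4-week arrays were the highest, while the arrays of 10 and 12 weeks differed by about 0.3 within each age and overlapped each other. The fitted change was −0.74 ± 0.13 (adjusted p = 0.019), and its 12-week arrays too lay under the receptor level. Leaving out replicate 1 or 2 of 4 weeks ended this call (adjusted p = 0.12 and 0.093), as did leaving out 12 weeks replicate 1 (0.087). Another 2 probe sets name Top2a together with other genes and were not used.

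Among the cyclins and the kinases that drive entry into mitosis, 1 of 8 measured genes fell. Ccna2 (chromosome 3, 36564865 to 36573038) encodes cyclin A2, the cyclin of DNA replication and early mitosis. Its levels were 8.18 and 8.06 at 4 weeks, 7.61 and 7.80 at 6 weeks, 7.47 and 7.58 at 8 weeks, 7.41 and 7.38 at 10 weeks, and 7.13 and 7.24 at 12 weeks. No array of 12 weeks overlapped any of a younger age, and all 10 stood above the receptor level. The fitted change was −0.87 ± 0.09, 1.83-fold lower, with the lowest adjusted p of the 39 genes (0.00073). Its call held without any single array, and was lost only when both 4-week arrays were left out (−0.68, adjusted p = 0.10).

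The other 7 genes of mitotic entry did not pass. Pbk, a kinase active in mitosis, had a fitted change of −0.41 ± 0.11. Its 4-week arrays, at 6.80 and 6.96, were above the other 8, which ran from 6.34 to 6.65, and it passed without 6 weeks replicate 1 (adjusted p = 0.027) and with 8 weeks replicate 1 left out as well (0.023). Cdk1, the kinase that the cyclins activate, had −0.32 ± 0.10 (adjusted p = 0.18), with 7.23 and 7.19 at 12 weeks against 7.43 and 7.60 at 4 weeks. Ccnb2, cyclin B2, had −0.27 ± 0.09, with 7.70 and 7.65 at 12 weeks against 8.06 and 7.93 at 4 weeks. For both genes the groups at the ends of the series did not overlap, but the arrays between them did. Plk1, the polo-like kinase, had −0.17 ± 0.06 and Cdca3, an adapter that promotes the destruction of the Cdk1 inhibitor Wee1, −0.16 ± 0.08. Melk, a kinase of proliferating progenitors, had −0.06 ± 0.08. Aurka, the Aurora kinase of the spindle poles, had −0.01 ± 0.07, and its 10 levels stayed within 7.65 and 7.85.

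**Figure D2:**
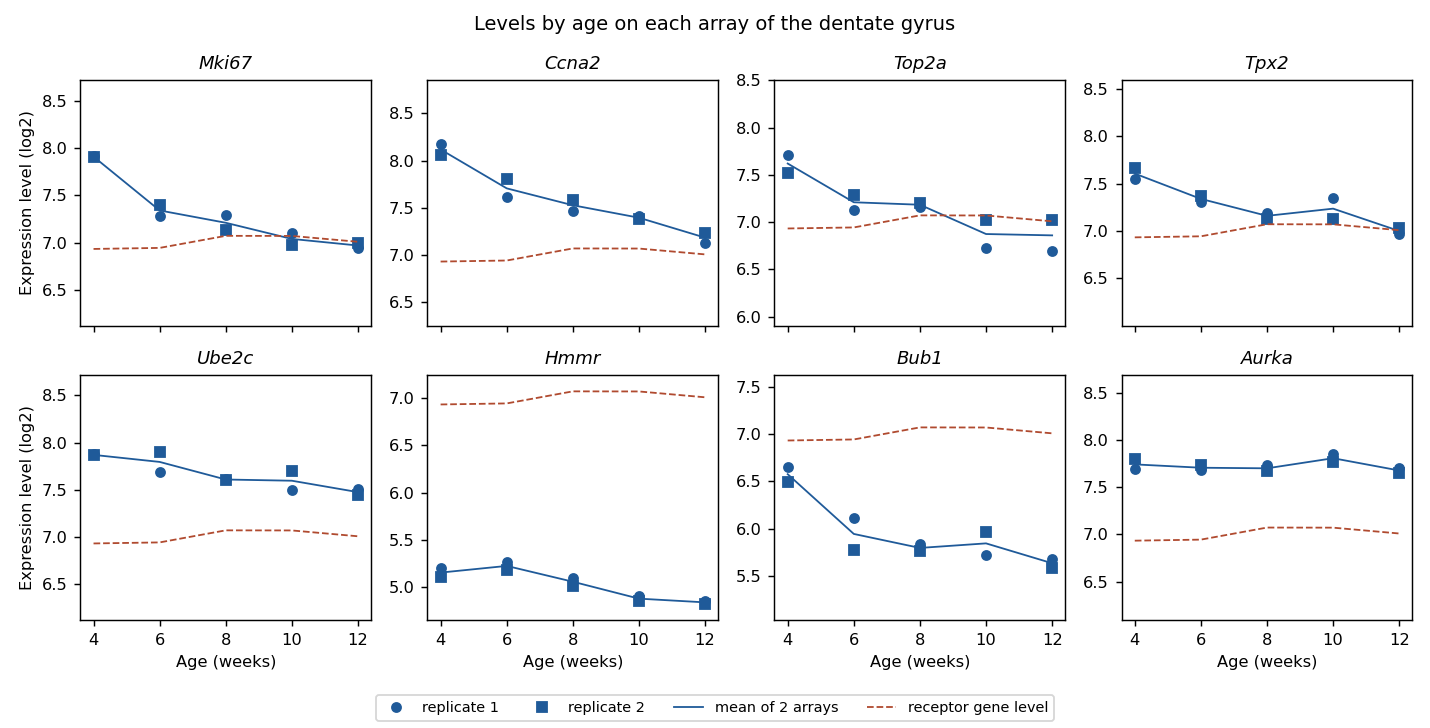
Expression levels (log2, vertical axis, each panel spanning the same range) by age in weeks on each of the 10 arrays for the 6 genes that passed the linear trend, for Bub1, which passed only 12 versus 4 weeks, and for Aurka; circles and squares are replicates 1 and 2, the solid line joins the means of 2 arrays, and the dashed line is the receptor level, averaged at each age. Mki67, Top2a and Tpx2 meet the dashed line at 10 or 12 weeks, while Aurka stays level above it.

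In the spindle group 2 of 8 genes fell. Tpx2 (chromosome 2, 152847964 to 152895321) encodes the factor that activates Aurora A and nucleates microtubules around chromosomes. Its levels were 7.55 and 7.67 at 4 weeks, 7.30 and 7.37 at 6 weeks, 7.19 and 7.13 at 8 weeks, 7.35 and 7.13 at 10 weeks, and 6.97 and 7.03 at 12 weeks. Both 4-week arrays were the highest and both 12-week arrays the lowest. The fitted change was −0.53 ± 0.09 (adjusted p = 0.023), again with both 12-week arrays under the receptor level. Leaving out either 4-week array, either 12-week array or 10 weeks replicate 2 ended the call (adjusted p of 0.056 to 0.13).

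Hmmr (chromosome 11, 40701388 to 40733464) encodes a hyaluronan receptor that also binds spindle microtubules. It was dim, and the fitted change of its measured signal was −0.39 ± 0.07 (adjusted p = 0.032). Its levels of 5.20 and 5.11 at 4 weeks, 5.27 and 5.18 at 6 weeks, 5.10 and 5.02 at 8 weeks, 4.91 and 4.85 at 10 weeks, and 4.85 and 4.83 at 12 weeks all lay below the receptor level, where the size of a change in RNA cannot be read off. The 4 arrays of 10 and 12 weeks were below the other 6. Of its 22 alternative fits 11 kept the call, and leaving out any of 7 single arrays ended it: 4 weeks replicate 1, 6 or 8 weeks replicate 2, or any array of 10 or 12 weeks (adjusted p of 0.052 to 0.13).

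The remaining spindle genes did not pass. Kif11, the motor that pushes the spindle poles apart, had the largest change among them, −0.62 ± 0.14 (adjusted p = 0.056). Its levels were 7.52 and 7.34 at 4 weeks, 7.27 and 7.18 at 6 weeks, 6.68 and 7.03 at 8 weeks, 7.03 and 6.70 at 10 weeks, and 6.78 and 6.88 at 12 weeks, so the 4 youngest arrays stood above the other 6. Leaving out 8 weeks replicate 1 brought it past the test (adjusted p = 0.011), and so did leaving out the pair of unusual arrays (0.019). Nusap1, which bundles spindle microtubules, had −0.42 ± 0.09, and passed in those same fits (adjusted p = 0.019 and 0.024). Ckap2l, a spindle protein of dividing neural progenitors in the mouse, had −0.41 ± 0.09 (adjusted p = 0.038 without that pair and 0.048 without 6 weeks replicate 1). Dlgap5, which stabilises the fibres that attach to kinetochores, had −0.15 ± 0.08. Kif15, a motor that works beside Kif11, had −0.06 ± 0.06, and the chromosome-bound motor Kif4 had 5.54 to 5.96 over the 10 arrays.

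Ube2c was the 1 gene of 6 that fell in the group of the spindle checkpoint and the anaphase-promoting complex. Ube2c (chromosome 2, 164769929 to 164772902) encodes the enzyme that hands ubiquitin to this complex. Its levels were 7.88 and 7.86 at 4 weeks, 7.69 and 7.91 at 6 weeks, 7.61 and 7.60 at 8 weeks, 7.50 and 7.69 at 10 weeks, and 7.51 and 7.44 at 12 weeks. The 12-week arrays were both below the 4-week arrays, but 1 array of 6 weeks was the highest of all. The fitted change was −0.39 ± 0.08 (1.31-fold lower, adjusted p = 0.034). The call was lost in 11 of 24 alternative fits. Among these were median centring (adjusted p = 0.054), the median receptor gene of each array as a covariate (0.056), and the fits without either array of 4 or 12 weeks, 6 or 8 weeks replicate 2, or 10 weeks replicate 1 (0.052 to 0.16).

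Bub1, the checkpoint kinase at the kinetochore, had a fitted change of −0.79 ± 0.16 that did not pass (adjusted p = 0.052), with levels of 6.65 and 6.50 at 4 weeks, 6.12 and 5.77 at 6 weeks, 5.83 and 5.76 at 8 weeks, 5.72 and 5.97 at 10 weeks, and 5.68 and 5.59 at 12 weeks. Both 4-week arrays stood above the other 8, all 10 lay under the receptor level, and the gene passed when age was taken on a log2 scale (−0.85, adjusted p = 0.013). It also passed without 6 weeks replicate 2 (adjusted p = 0.015) or 8 weeks replicate 1 (0.045). Bub1b, the related checkpoint protein BubR1, had −0.05 ± 0.09 and levels within 6.85 and 7.18. The difference between these related genes was not tested. Cdc20, which activates the anaphase-promoting complex, had −0.22 ± 0.09. Mad2l1, the checkpoint protein that holds Cdc20 back, had −0.15 ± 0.08, and the checkpoint kinase gene Ttk −0.15 ± 0.13. Ttk varied most within an age, with a level of 5.94 on the lower and 6.51 on the higher array of 8 weeks.

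None of the 4 genes of the chromosomal passenger complex passed. Aurkb, its Aurora kinase, had −0.28 ± 0.10, with 7.66 and 7.84 at 12 weeks against 8.07 and 8.08 at 4 weeks. It passed in 1 of 24 alternatives, with the median receptor gene of each array as a covariate (−0.39, adjusted p = 0.039). Cdca8, borealin, had −0.15 ± 0.09, Incenp, the scaffold of the complex, −0.08 ± 0.08, and Birc5, survivin, −0.06 ± 0.08. For Cdca8, Incenp and Birc5 the arrays of 12 and 4 weeks overlapped.

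The 6 genes of centromere and kinetochore had small changes and 0 passed. Nuf2 had −0.21 ± 0.09, Spc25 −0.17 ± 0.10 and Ndc80 0.17 ± 0.12; these encode subunits of the Ndc80 complex, which grips the microtubule. Ndc80 was lowest on 1 array of 4 weeks, at 6.09, and had 6.40 to 6.75 on the other 9. Cenpe, a kinetochore motor, had −0.19 ± 0.11, Cenpf −0.18 ± 0.08 and Cenpa, the histone variant of centromeres, −0.10 ± 0.11. Of the 6 only Cenpa was not dim.

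The 5 genes of the midzone and of cytokinesis had negative changes, and 0 passed. Racgap1 had −0.40 ± 0.13 and Kif23 −0.18 ± 0.10; together they form the centralspindlin complex of the midzone. Racgap1 spread widely, with 7.49 and 7.92 at 12 weeks against 8.25 and 7.86 at 4 weeks, so these ages overlapped. Ect2, the exchange factor that starts the contractile ring, had −0.36 ± 0.09 (adjusted p = 0.078), with 6.71 and 6.75 at 12 weeks against 7.14 and 7.20 at 4 weeks, its 2 highest arrays. Prc1, which bundles the midzone microtubules, had −0.33 ± 0.08 (adjusted p = 0.073), and Kif20a, which brings the passenger complex there, −0.19 ± 0.08. Ect2 passed without 6 weeks replicate 2 (adjusted p = 0.038) and Prc1 without 8 weeks replicate 1 (0.048).

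**Figure D3:**
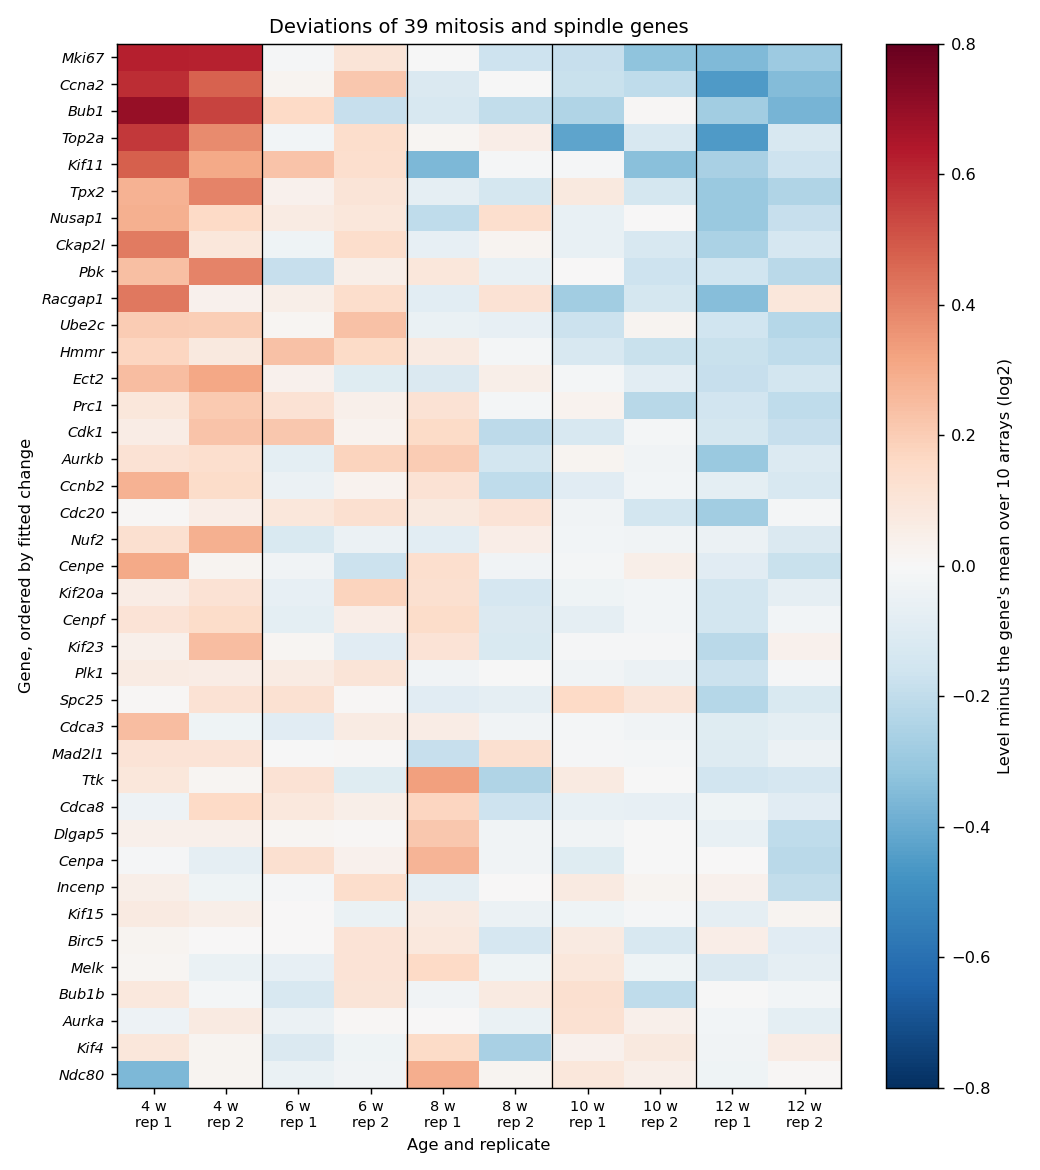
Deviation of each of the 39 genes from its own mean over the 10 arrays (log2, colour scale from −0.8 to 0.8), with arrays in order of age and genes ordered by fitted change. The 2 columns of 4 weeks are red for the upper rows, from Mki67 at the top, and 8 genes (Aurkb, Cdca8, Cenpa, Dlgap5, Kif4, Melk, Ndc80 and Ttk) have their highest value on the array of 8 weeks replicate 1. The share of all genes highest on that array was not counted.

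Between the ends of the series, 12 against 4 weeks with age as a factor, 4 of 39 genes were lower and 0 higher, which is 10.3%, where 0.39% of all genes were called as lower (0.516% in either direction). The difference was negative for 38 of the 39, against 49.7% of all genes. Mki67 averaged 6.97 ± 0.04 at 12 weeks and 7.91 ± 0.00 at 4 weeks (SD, n = 2 each), a difference of −0.94 ± 0.08 (SE, limma adjusted p = 0.0024). Ccna2 averaged 7.19 ± 0.08 at 12 weeks and 8.12 ± 0.09 at 4 weeks, a difference of −0.93 ± 0.09 (limma adjusted p = 0.0029, n = 2). Bub1 differed by −0.94 ± 0.12 (adjusted p = 0.016); its mean was 5.63 ± 0.06 at 12 weeks and 6.58 ± 0.11 at 4 weeks. Tpx2 differed by −0.61 ± 0.09 (adjusted p = 0.024). Top2a, at −0.76 ± 0.13, had an adjusted p of 0.052. Without either array of 8 weeks Top2a (adjusted p = 0.047), Nusap1 (0.026) and Ect2 (0.028) passed too. Without the pair of unusual arrays Pbk (adjusted p = 0.045), Nusap1 (0.039) and Ect2 (0.026) did. Leaving out either array of 4 or of 12 weeks ended the calls of Bub1 and Tpx2 (adjusted p of 0.13 to 0.24), and that of Ccna2 was lost without replicate 1 of either age (0.053 and 0.054). These ends are part of the trend, so the calls are not independent of it.

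Without any test, both 12-week arrays lay below both 4-week arrays for 30 of the 39 genes, against 22.2% of all genes, and above them for 0, against 21.6%. The other 9 overlapped. Both 4-week arrays stood above the remaining 8 for 11 genes, against 4.11% of all genes: Ccna2, Ccnb2, Pbk, Mki67, Top2a, Nuf2, Bub1, Kif11, Tpx2, Nusap1 and Ect2. The age means fell at each of the 4 steps for 11 genes, against 2.23% of all genes. The lowest mean was that of 12 weeks for 31 genes and the highest that of 4 weeks for 26. The shares of all genes were not counted for these.

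No single step passed for any mitosis gene, nor for any of the 19752 genes (0.0% called in each of the 4 steps). An unadjusted p under 0.05 was found for 9 of the 39 genes between 6 and 4 weeks, or 23.1%, against 4.13% of all genes. It was found for 2, 3 and 3 genes in the later steps (5.13%, 7.69% and 7.69%, against 6.25%, 4.79% and 5.59% of all genes). The median change of the 39 genes was −0.08 between 6 and 4 weeks, −0.03 between 8 and 6, −0.03 between 10 and 8 and −0.08 between 12 and 10, where neighbouring steps share the arrays of an age. In these steps 29, 25, 30 and 35 of the 39 genes had a negative change, against 47.0%, 45.2%, 60.1% and 53.0% of all genes. The first step held 60.6% of the difference between 12 and 4 weeks for Mki67, 67.1% for Bub1, 53.9% for Top2a, 44.1% for Ccna2, 44.1% for Tpx2 and 18.9% for Ube2c. These genes were picked by tests that used the same 4-week arrays, which favours a large first step. The percentages are therefore a description only. Hmmr went the other way in the first step, with a mean 0.07 higher at 6 weeks.

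Whether the later 4 weeks differed from the earlier 4 was tested as the change from 8 to 12 weeks minus that from 4 to 8 weeks, in which a positive value means a smaller fall later. None of the 39 genes passed, nor did any of all genes (0.0% called, 1613 genes at an unadjusted p under 0.05). The value was negative for 15 of the 39, against 61.8% of all genes. Mki67 had 0.46 ± 0.14 (adjusted p = 0.59), Bub1 0.62 ± 0.22 (0.59) and Kif11 0.55 ± 0.24 (0.60). These 3 of the 39 (7.69%) had an unadjusted p under 0.05, a share near the 8.17% of all genes. A test of any difference between ages called 2 of the 39, Mki67 (adjusted p = 0.016) and Ccna2 (0.026), against 0.167% of all genes. Leaving out any single array of 4, 10 or 12 weeks left 0 of the 39 past this test.

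**Figure D4:**
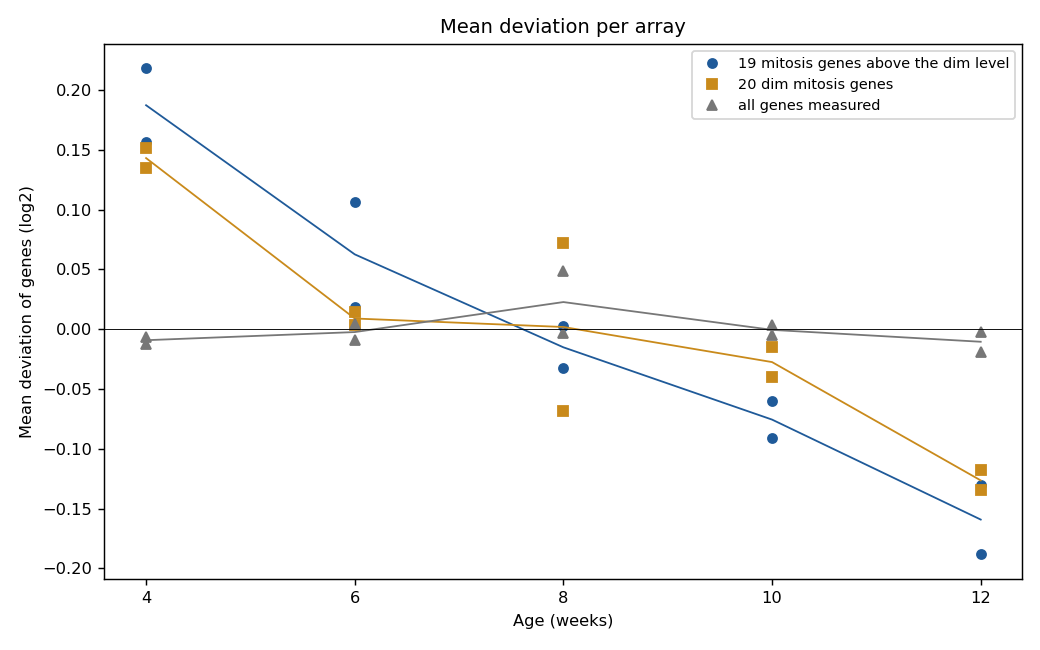
Mean over genes of the deviation from each gene's own mean (log2, vertical axis) on each array by age in weeks, for the 19 mitosis genes above the dim level, the 20 dim ones and all genes measured; lines join the means of 2 arrays. Both sets of mitosis genes are highest at 4 weeks and lowest at 12 weeks, and the dim set parts most between the 2 arrays of 8 weeks.

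The mitosis genes above the dim level and the dim ones both averaged lower at 12 than at 4 weeks. The mean deviation of the 19 brighter genes was 0.22 and 0.16 at 4 weeks, 0.02 and 0.11 at 6 weeks, 0.00 and −0.03 at 8 weeks, −0.06 and −0.09 at 10 weeks, and −0.19 and −0.13 at 12 weeks. That of the 20 dim genes was 0.14 and 0.15 at 4 weeks, 0.01 and 0.00 at 6 weeks, 0.07 and −0.07 at 8 weeks, −0.02 and −0.04 at 10 weeks, and −0.13 and −0.12 at 12 weeks. The median fitted change was −0.27 for the brighter and −0.19 for the dim genes, and 5 and 1 of them passed. Across the 39 genes the correlation of mean level with fitted change was −0.04, given as a description of genes that share arrays. At 8 weeks 15 of the 20 dim genes were higher on replicate 1 than on replicate 2, against 54.7% of all genes. The median receptor gene was higher there by 0.17 as well. With the median receptor gene of each array as a covariate, 6 of the 39 genes again passed the trend, and 6 passed 12 against 4 weeks. Over all genes 167 and 144 passed these 2 tests with the covariate, against 162 and 102 without it. With 6 and 8 weeks replicate 1 both left out, 10 of the 39 genes passed the trend, while the calls over all genes rose as well, from 162 to 225.

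In the promoters, the CHR hexamer was frequent and close to the start. A promoter window of 250 bases before and 50 after the annotated start was given for 32 of the 39 genes. TTTGAA, searched on both strands, was present in 25 of the 32 (78.1%), against 17.3% of 15483 genes of the array with such a window. Within 50 bases of the start, a limit chosen after the positions were seen, it was present in 24 (75.0%), against 4.48% of the array's genes. It lay before the start in 11 genes and after it in 17, some genes having both. The stretches printed above end at or before the start, so matches after it are not shown there. The start used is that of 1 annotated transcript, and for 14 of the 32 genes it lies inside the gene's annotated span; counted from the outer edge of that span, 22 have the hexamer within 50 bases. The variant TTCGAA was found in 3 (9.38%, against 2.14%).

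CCAAT was found in 25 of the 32 promoters (78.1%, against 41.7%), and 18 had at least 2. Both motifs together were present in 23 (71.9%, against 6.88%), in all of which a CCAAT lay before a TTTGAA; in Cdca8 a match of each shares a base. Of the forms of the E2F site, TTCCCGC was found in 0 (against 7.41%) and TTGGCGC in 4 (12.5%, against 3.86%), where in Ect2 it overlaps a CCAAT. A match is a string of letters and not a shown binding site.

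The hexamer was present in genes that passed the trend and in genes that did not. All 4 genes with a window that passed the trend (Mki67, Top2a, Ube2c and Hmmr) carried it, as did Aurka, Bub1b, Kif4 and Ndc80, whose changes were near 0 or positive. The median fitted change was −0.18 for the 25 genes with it and −0.19 for the 7 without, and the difference was not tested. The 7 include Bub1, which has the variant TTCGAA. Ccna2 and Tpx2, which also passed the trend, had no window. In the stretches printed above, Mki67 has its copies at positions −116 and −98 from the start of the window's transcript (−45 and −27 from the outer edge of the gene), Top2a at −23, Ube2c at −29, and Kif11 and Kif15 both at −19.

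**Figure D5:**
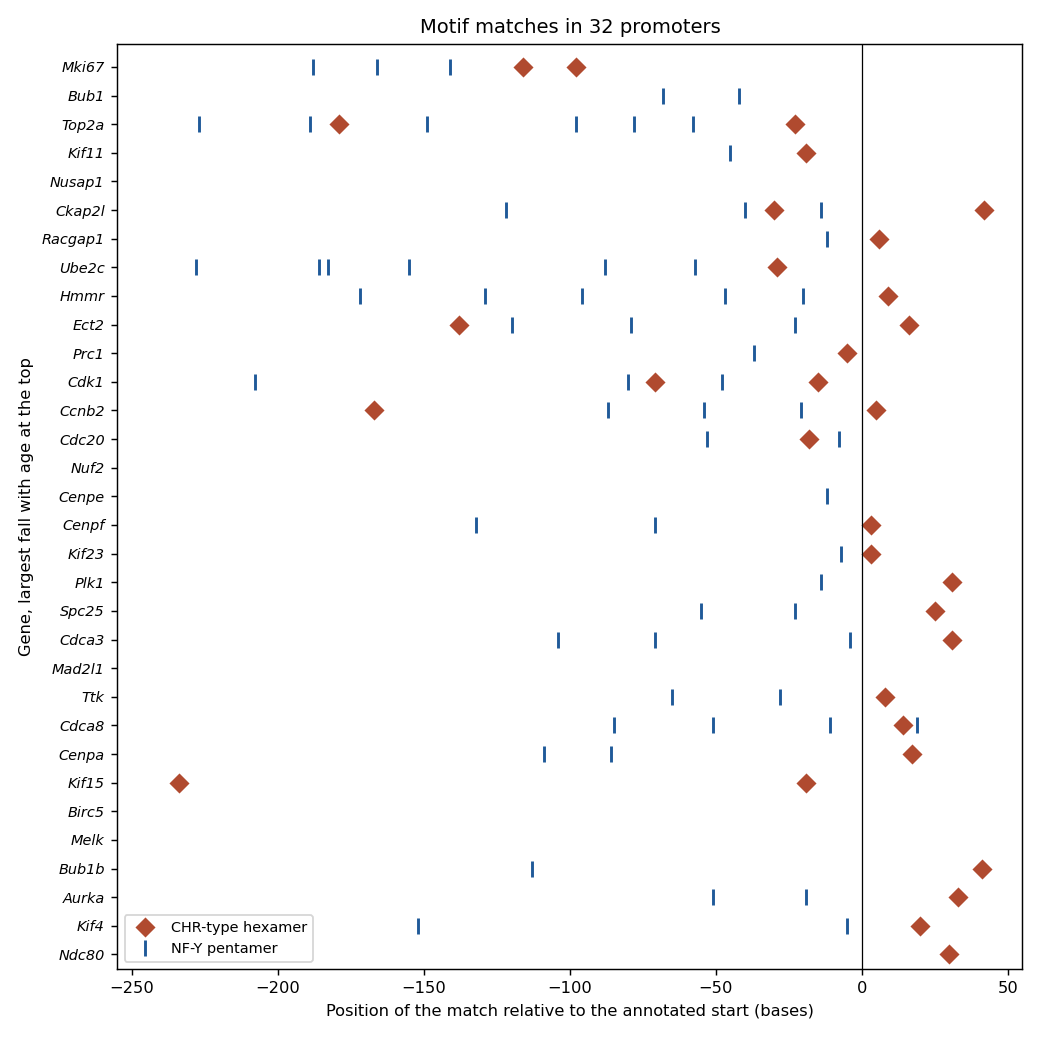
Positions of motif matches relative to the annotated start (bases, horizontal axis) in 32 promoters, with genes ordered by fitted change; diamonds are the CHR-type hexamer, bars the NF-Y pentamer, and for Ect2 and Prc1 the first of 2 windows is drawn. Diamonds lie within 50 bases of the start in 24 of the 25 genes that have one, and for Mki67 they lie further out from the start used here, and Nusap1, Nuf2, Mad2l1, Birc5 and Melk have neither.

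Other genes of mitosis, from a list of 98 with 92 measured, had few calls. Of them 1 fell and 0 rose, a share near the 0.673% of all genes called as falling: Cks2, a small partner of Cdk1, with a fitted change of −0.63 ± 0.11 (adjusted p = 0.018) and means of 8.11 ± 0.05 at 12 weeks and 8.76 ± 0.03 at 4 weeks (SD, n = 2). Their median change was −0.10, and 73 of 92 were negative, against 48.8% of all genes. Of 21 transcriptional regulators of the cell cycle (the MuvB, Rb, E2F and NF-Y genes with Foxm1 and Mybl2) 0 passed. The lowest p belonged to Nfyc, a subunit of NF-Y (−0.26 ± 0.08, adjusted p = 0.18), and Tfdp1, the partner of E2F proteins (−0.26 ± 0.08, adjusted p = 0.22).

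Of 31 genes of DNA replication and nucleotide synthesis 3 fell and 0 rose, where 0.673% of all genes were called as falling. Their median change was −0.04, and 23 of the 31 were negative, against 48.8% of all genes. The genes that fell are named here. These 3 were Rrm2, the ribonucleotide reductase subunit of dividing cells (−0.58 ± 0.07, adjusted p = 0.0034), Gins1, part of the replication helicase (−0.46 ± 0.07, adjusted p = 0.0081, dim), and Mcm7, another part (−0.42 ± 0.07, adjusted p = 0.016). The difference between these lists and the 39 genes was not tested.

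Some markers of cell types that divide or arise by division fell as well, where 0.673% of all genes were called as falling. Of 5 intermediate progenitor markers 3 fell, Eomes, Igfbpl1 and Sstr2 (median of the list −0.69), and of 5 neuroblast markers 4, Dcx, Cd24a, Sox4 and Dpysl3 (median −1.08). Of 4 radial glia-like stem cell markers 2 fell, Nes and Lpar1 (median −0.35), and of 5 oligodendrocyte precursor markers 2, Olig2 and Gpr17 (median −0.16). The other measured markers of the stem cell list, Hopx (−0.21 ± 0.06) and Sox2 (−0.13 ± 0.10), did not pass. Nor did those of the precursor list, Pdgfra (−0.16 ± 0.08), Cspg4 (−0.14 ± 0.07) and Sox10 (−0.09 ± 0.08). Of 5 granule cell markers Tdo2 fell (median −0.05). Eomes averaged 7.22 ± 0.05 at 12 weeks and 8.27 ± 0.04 at 4 weeks (SD, n = 2). Neurog2 of the same list, which did not pass, averaged 7.64 ± 0.17 at 12 weeks and 7.94 ± 0.07 at 4 weeks. Of the 5 markers each of microglia (median 0.11), endothelium (0.24) and choroid plexus (−0.06), and the 2 measured of erythroid cells (−0.05), 0 passed. Neurod4 of the intermediate progenitor list and Clic6 of the choroid plexus list were dim, with means of 6.34 and 6.44. The part of each cell type in the change of the mitosis genes was not tested.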

How the data were processed

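The authors deposited 1 table of 25254 probe sets by 10 arrays. The values as deposited by the authors are read as log2 expression levels, because they run from 2.50 to 15.04 with array medians of 8.27 to 8.31. The log base, background correction and normalization are not given in the sources used here. The genome build is mm10 per the submitters' processing notes. Per the labels' protocols, total RNA was fragmented and biotinylated with a whole-transcript terminal labelling kit.

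Probe sets annotated to 1 gene (21496 of 25254) were used; 1565 name several genes and 2193 none. The brightest probe set stood for a gene, giving 19752 genes with no filter. Arrays were grouped by age and replicate from their titles. All tests were two-sided and came from the moderated linear models of limma (version 3.58.1, under R 4.3.3), with Benjamini-Hochberg adjustment over all genes and a threshold of 0.05. The linear trend used age as a number, and all other comparisons age as a factor over the 10 arrays. The precision is limited by 2 arrays per age. The code was tested on simulated data. All 39 measured genes are named, and of the other lists those that passed, or else the 2 of lowest p. The genes, lists and tests were chosen with earlier results of these data known. Promoter windows came from RefSeq (GRCm38.p6) and were searched with Python 3.11.15 for exact matches.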

Additional observations from a re-analysis of the deposited data

How the results depend on the processing

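Of 1667 values of the 39 genes under alternatives (24 for the trend, 21 for 12 versus 4 weeks), 1547 kept direction and side of the threshold, 48 lost a call, 49 gained one and 23 changed sign, 0 of these for a called gene. The count of mitosis genes called in the trend, 6, ran from 1 to 10 when single arrays were left out. Leaving out replicate 1 of 4 weeks gave 1, replicate 2 of 4 weeks 3, replicate 1 of 12 weeks 2, replicate 2 of 12 weeks 3, and replicate 1 of 8 weeks 10. It was 12 with array weights, 10 without the pair of unusual arrays (6 and 8 weeks replicate 1), 2 without both 12-week arrays and 0 without both 4-week arrays. For 12 versus 4 weeks the count of 4 ran from 1 to 7 over single arrays, with 10 under array weights and 7 without that pair. The count of 2 for any age ran from 0 to 2. For the later minus the earlier 4 weeks it ran from 0 to 1; the 1, Ttk, was found without 8 weeks replicate 2, when 8 weeks rests on the array of narrow spread and 1876 genes passed. For the 4 steps it was 0 throughout.

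Over all genes, the trend's 162 calls became 337 without the dimmest 30%, 328 without genes under the receptor level, 350 with a trended prior, 417 with array weights, 51 without both 12-week and 7 without both 4-week arrays, and 35 to 279 over single arrays. The 102 calls of 12 versus 4 weeks became 210, 201, 303 and 261 under the first 4 of these, and 13 to 188 over single arrays. The 33 calls for any age became 69, 53, 151 and 69, and 5 to 50 over single arrays. Calls of 6 versus 4 weeks became 3, 3, 10 and 3, 1 with quantile normalization, and 0 to 10 over single arrays. Those of 12 versus 10 weeks became 3, 2, 9 and 4, 2 with quantile normalization, 2 without that pair, and 0 to 1 over single arrays. Those of 8 versus 6 weeks were 0 to 1079 and of 10 versus 8 weeks 0 to 0 over single arrays, and those of the later minus the earlier 4 weeks 0 to 1876.

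With the replicate number as a block, 12 versus 4 weeks had 66 calls, any age 13, and any age 0 mitosis genes; Tpx2 lost its call for 12 versus 4 weeks (adjusted p = 0.058). Same-numbered arrays deviated together (correlation over 0.1) in 3 of 10 pairs, so the numbers were not taken as pairs. The receptor covariate (the median receptor gene of each array) and the fit without that pair were chosen after seeing the data.

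Signs changed for genes that passed nowhere. In the trend Aurka had 0.0047 with median centring, 0.00056 with array weights, 0.076 without both 12-week arrays, 0.0076 without both 4-week arrays, and −0.041 to 0.029 over single arrays. Without both 12-week arrays Melk had 0.073, Incenp 0.0090, Cenpa 0.0096 and Spc25 0.016; Incenp had −0.122 to 0.012 over single arrays. Ndc80 had −0.00093 without both 4-week arrays. Kif4 had −0.013 with quantile normalization, −0.0012 with array weights, −0.051 with the receptor covariate and −0.0039 to 0.079 over single arrays. For 12 versus 4 weeks the ranges over single arrays were −0.104 to 0.042 for Birc5, −0.205 to 0.027 for Incenp, −0.175 to 0.045 for Cenpa, −0.037 to 0.349 for Ndc80, −0.098 to 0.0057 for Bub1b and −0.080 to 0.0034 for Kif4. The cause was not tested for any of these.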
